A study of Caenorhabditis elegans with 12 samples.

Results

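The 10 genes described here encode collagens of the Caenorhabditis elegans cuticle, chosen by name out of 45836 genes in the deposited count table. They are 6 furrow collagens (dpy-2, dpy-3, dpy-7, dpy-8, dpy-9 and dpy-10), 2 strut collagens whose loss blisters the adult cuticle (bli-1 and bli-2) and 2 collagens that set body shape (rol-6 and sqt-3). They were chosen by name and not by a threshold on their values. RNA from whole gravid adults was sequenced in 4 groups of 3 biological replicates, each replicate collected from 3 plates of 1500 eggs. F0 animals were wild-type N2 kept for 5 generations at 25 °C and collected 54 to 56 h after plating. F3 animals descended from that population, were moved to 20 °C as L4 larvae, spent 3 generations there and were collected at 72 to 76 h. The mutants, strain MT17463 with set-25(n5021), were grown at 20 °C throughout (over 20 generations) and collected at 72 to 76 h. Control animals were N2 handled in parallel with F0 and F3, starting from L4 animals kept at 20 °C throughout. The series compared temperature, descent from heated animals and loss of SET-25, a histone methyltransferase acting on lysine 9 of histone H3.

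The cuticle is an extracellular coat of cross-linked collagens that the epidermis secretes anew at every moult. Collagen genes are switched on in waves within each moulting cycle, and adults no longer moult. The furrow collagens are needed for the circumferential furrows of the cuticle: worms that lack one of them are short and stout (dumpy), and in most cases they raise osmotic, detoxification and antimicrobial peptide genes. BLI-1 and BLI-2 form struts that join the layers of the adult cuticle. ROL-6 is known for dominant alleles that make worms roll, and SQT-3 is a collagen whose mutants are dumpy or roll and whose processing needs the astacin protease DPY-31.

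Total counts ran from 10678819 to 35483865 per library, and the shallowest was set-25 library 3. The share of ribosomal RNA was 11.7%, 4.01% and 26.3% in mutant libraries 1, 2 and 3, and 3.43 to 4.93% in wild-type animals. The library names of the mutants carry later numbers and their protocol names no wild type grown beside them, so the mutation and the batch of libraries cannot be told apart. Hours since plating and temperature likewise cannot be told apart in F0, and the labels give no separate hours for the control. The set-25 transcript had 50.7 to 59.3 CPM (counts scaled to TMM-adjusted library size) in the mutants, against 61.98 to 77.2 in F3, 50.9 to 55.6 in F0 and 65.9 to 69.7 in the control. The mutants were therefore not below F0 in this transcript, and the labels do not say which stretch of the gene the allele alters. Whole animals were labelled as gravid adults, and all 8 intestinal markers on the list used here, both vitellogenin genes vit-2 and vit-5 among them, all 8 germline markers and all 8 muscle markers passed the expression filter. In whole animals, fewer cells of a type and less RNA per cell cannot be told apart.

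All 10 collagens were rare transcripts here. Summed over the 10 genes, the level was 22.5 ± 2.45 CPM in F0, 14.6 ± 0.804 CPM in F3, 12.5 ± 1.70 CPM in set-25 mutants and 17.1 ± 3.50 CPM in the control (SD, n = 3 each). The other cuticle collagens named col- and a number, 159 genes, together held 30120 to 32501 CPM in F0 and 29293 to 29502 CPM in the control. The furrow, strut and shape collagens are thus a very small share of the collagen RNA of these adults.

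Divided by exon length (Ensembl 115 annotation of assembly WBcel235), sqt-3 was the most abundant of the 10 in every group. Its level was 8.73 ± 0.747 CPM per kb in F0, 4.66 ± 0.290 in F3, 3.72 ± 0.585 in set-25 mutants and 5.74 ± 1.12 in the control (SD, n = 3 each). dpy-10 came next, at 2.38 ± 0.291 CPM per kb in F0, 3.10 ± 0.241 in F3, 2.68 ± 0.317 in set-25 mutants and 2.86 ± 0.159 in the control. dpy-9 followed at 1.43 ± 0.135 CPM per kb in F0, 0.771 ± 0.129 in F3, 0.774 ± 0.159 in set-25 mutants and 0.892 ± 0.0393 in the control. dpy-2 stood below it, at 1.11 ± 0.171 CPM per kb in F0 and 0.438 ± 0.0556 in the control. The ranges of these 4 genes did not overlap with one another in the control, nor did those of sqt-3, dpy-10 and dpy-9 in F0. From dpy-2 downward neighbours ran together in the control: dpy-7 spanned 0.299 to 0.513 CPM per kb, bli-1 0.253 to 0.425, dpy-3 0.0972 to 0.573, dpy-8 0.0556 to 0.552, rol-6 0.0286 to 1.08 and bli-2 0 to 0.823. The order of those genes cannot be read from these libraries.

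**Figure D1:**
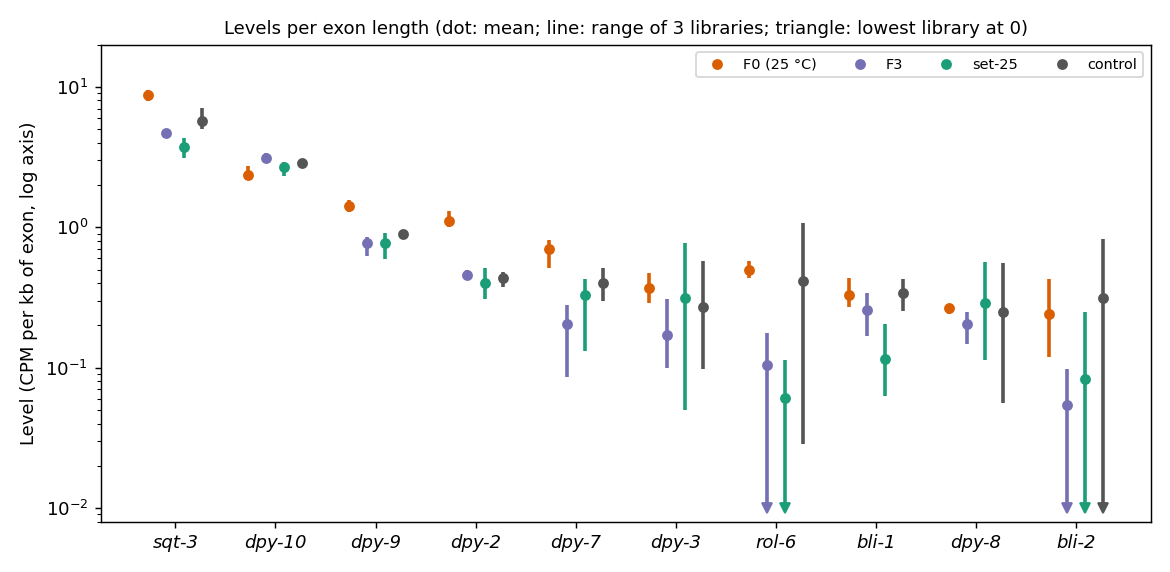
Level of each collagen in CPM per kb of exon (log axis), by group, as the mean (dot) and the range of 3 libraries (line). sqt-3 and dpy-10 lie above the other genes in all 4 groups, and the lower genes have wide, overlapping ranges, with triangles where the lowest library had 0 counts.

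The counts behind these levels differ widely. Over 12 libraries sqt-3 collected 2936 counts and dpy-10 1506, whereas bli-2 collected 59, dpy-3 84.5, rol-6 108 and dpy-8 120. Of the 10 genes 9 passed the expression filter and bli-2 did not. The filter asked for about 0.333 CPM in at least 3 libraries. On the unscaled library sizes that the filter used, rol-6 reached it in all 3 F0 libraries and 1 control library, and dpy-3 in 2 F0 libraries, 1 set-25 library and 1 control library. rol-6 thus passed mainly through F0, and its values in comparisons with F0 are descriptive.

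Reads of dpy-10 need a caution. In the annotation a protein-coding gene on the same strand, T14B4.19, shares 780 exonic bases with dpy-10 and overlaps it with 4 of its 5 exons. No value for T14B4.19 was used here, so dpy-10 counts and reads of that gene cannot be told apart. Smaller overlaps on the opposite strand touch dpy-8 (109 bases of C31H2.14), bli-1 (7 bases of dph-2) and sqt-3 (144 bases of the noncoding RNA F23H12.13), and the labels do not state whether counting used strand.

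Chromosome II holds 5 of the genes (dpy-2, dpy-10, bli-1, bli-2 and rol-6), X holds 3 (dpy-3, dpy-7 and dpy-8), IV holds dpy-9 and V holds sqt-3. dpy-2 and dpy-10 are close neighbours on opposite strands. T14B4.13, T14B4.14 and T14B4.15 are annotated between them, and T14B4.19 reaches from dpy-10 into that gap.

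In F0 animals, collected at 25 °C, dpy-2, dpy-9 and sqt-3 were higher than in the control and no member was lower. These were 3 of 9 members tested (edgeR's quasi-likelihood test, adjusted p under 0.05 over all 14466 genes), where 16.7% of all genes were higher. The members' median log2 fold change was 0.50, beside 0.01 over all genes tested. The col- class behaved likewise as a whole: 48 of its 107 tested genes were higher and 3 lower, with a median of 0.51.

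Among the furrow collagens, dpy-2 had 1.32, 1.34 and 1.72 CPM in F0, against 0.640, 0.603 and 0.498 CPM in the control. Every F0 library was above every control library. The log2 fold change was 1.32 ± 0.24 (SE), or 2.49-fold, with an adjusted p of 0.000444 by edgeR. The call held in all 13 alternative settings.

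dpy-9 had 1.4998, 1.36 and 1.64 CPM in F0, against 0.889, 0.968 and 0.950 CPM in the control, again without overlap. It was 1.63-fold higher (log2 fold change 0.70 ± 0.21, edgeR adjusted p = 0.0172). This call was lost with DESeq2 and when F0 library 3, control library 1 or control library 3 was left out, where adjusted p reached up to 0.0769.

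dpy-7, which is widely used as an epidermal promoter, had 0.588, 0.924 and 0.898 CPM in F0 and 0.444, 0.589 and 0.342 CPM in the control. F0 library 1 lay level with control library 2, and the groups overlapped. The log2 fold change of 0.82 ± 0.36 did not pass (edgeR adjusted p = 0.0999), although a fit on the 6 libraries of this comparison gave 0.0454.

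dpy-3 and dpy-8 did not separate F0 from the control. dpy-3 had 0.279, 0.328 and 0.456 CPM in F0, against 0.551, 0.140 and 0.0934 CPM in the control. dpy-8 had 0.368, 0.417 and 0.413 CPM in F0 and 0.836, 0.0841 and 0.218 CPM in the control. In both genes control library 1 was above every F0 library and the other controls were below. Their log2 fold changes were 0.50 ± 0.64 and 0.10 ± 0.61 (edgeR adjusted p = 0.604 and 0.923).

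dpy-10 had 3.50, 3.53 and 4.32 CPM in F0, against 4.50, 4.84 and 4.34 CPM in the control, so every F0 library was below every control library, the third only by a small margin. The log2 fold change of -0.27 ± 0.13 did not pass (edgeR adjusted p = 0.129).

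The ratio of dpy-10 to dpy-2 counts within a library does not depend on how libraries are scaled. It was 2.64, 2.63 and 2.50 in F0, against 7.40, 9.31 and 7.74 in F3, 9.04, 6.47 and 9.50 in set-25 mutants, and 7.03, 8.02 and 8.72 in the control. F0 stood apart from all 9 libraries grown at 20 °C, which overlapped one another. This ratio was chosen after the values were seen and was not tested. The reads of T14B4.19 bear on dpy-10, and their part in it was not tested.

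Of the strut collagens, bli-1 had 0.853, 0.820 and 1.31 CPM in F0 and 1.28, 1.04 and 0.763 CPM in the control. The groups overlapped, with a log2 fold change of -0.02 ± 0.30 (edgeR adjusted p = 0.973). bli-2 had 0.118, 0.179 and 0.428 CPM in F0, from 4, 6 and 15 counts, against 0.818, 0.112 and 0 CPM in the control, from 23, 4 and 0 counts. Nearly all control counts of bli-2 were in control library 1. The count of 0 in control library 3 allows up to 0.0934 CPM (3 counts, counting error only).

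sqt-3, the best-counted member, had 12.4, 11.4 and 13.5 CPM in F0, against 9.999, 7.15 and 7.36 CPM in the control. All F0 libraries were above all controls, of which library 1 was the highest. It was 1.53-fold higher (log2 fold change 0.61 ± 0.13, edgeR adjusted p = 0.00130) and passed in all 13 alternative settings.

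rol-6 had 0.529, 0.477 and 0.627 CPM in F0 and 1.17, 0.140 and 0.0311 CPM in the control. The F0 libraries were close together, whereas control library 1 was above them and the other controls below. The log2 fold change of 0.38 ± 0.81 did not pass (edgeR adjusted p = 0.774). Without control library 1 the log2 fold change was 2.56; rol-6 then passed the expression filter through F0 alone, so no call is read from that fit.

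**Figure D2:**
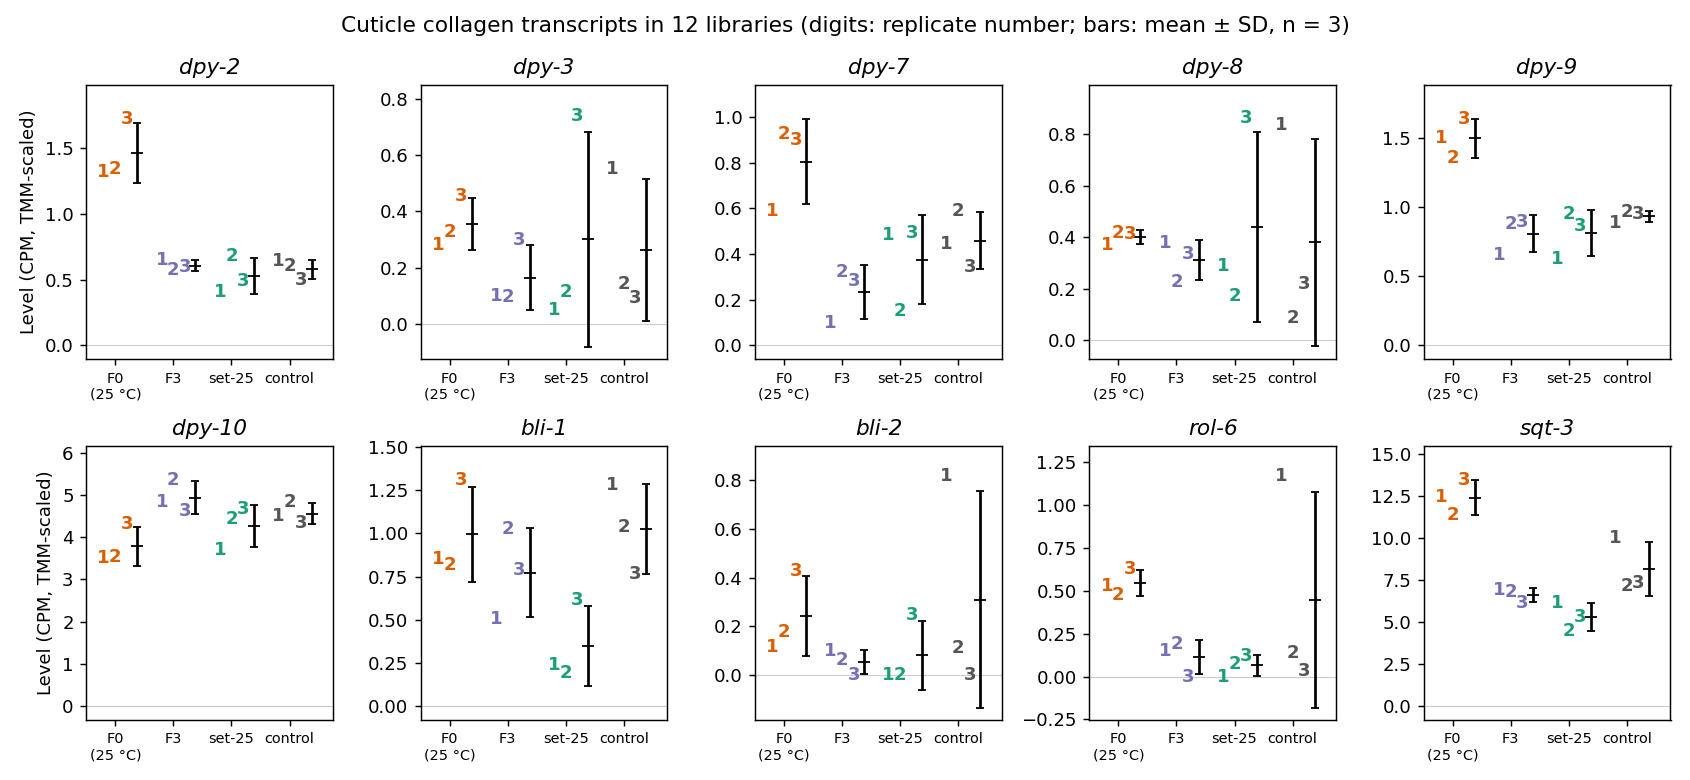
Level in CPM (linear axis with its own range in each panel) of the 10 collagens in F0, F3, set-25 and control libraries; each digit is 1 library and gives its replicate number, and the bars are the mean ± SD (n = 3). F0 lies above the other 3 groups in dpy-2, dpy-9 and sqt-3, while control library 1 stands far above controls 2 and 3 in dpy-3, dpy-8, bli-2 and rol-6.

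Control library 1 stood at least 2-fold above both other controls in 4 of 10 members, dpy-3, dpy-8, bli-2 and rol-6. Among 11 other body-shape and cuticle collagens it did so in 5 (dpy-4, dpy-5, dpy-13, sqt-1 and lon-3, named after their values were seen). In the col- class it did so in 25.2% of 107 genes, and over all genes tested in 1.13%. Among 15 larval moult genes it did so in 0. dpy-2, dpy-9, dpy-10 and sqt-3 varied by at most 1.40-fold between the highest and lowest control library.

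dpy-5, another dumpy collagen, had 5.99, 2.30 and 0.156 CPM in control libraries 1, 2 and 3. In the same libraries dpy-4 had 5.35, 1.68 and 0.408 CPM. Control library 3 was at the opposite end, at least 2-fold below both other controls in 7 of those 11 collagens and in 13.1% of the col- class, against 2.70% of all genes.

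Set-25 library 3, the shallowest, stood at least 2-fold above both other mutant libraries in 4 of 10 members (dpy-3, dpy-8, bli-1 and bli-2), against 2.94% of all genes tested. In the set-25 group dpy-3 had 0.0482, 0.114 and 0.739 CPM, and dpy-8 had 0.289, 0.171 and 0.862 CPM in libraries 1, 2 and 3. Library 3 held 6 counts of dpy-3, 7 of dpy-8, 5 of bli-1 and 2 of bli-2. Of the 11 other collagens 1 was at least 2-fold above both other mutant libraries there, while dpy-4, dpy-5 and sqt-1 were at 0. 

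**Figure D3:**
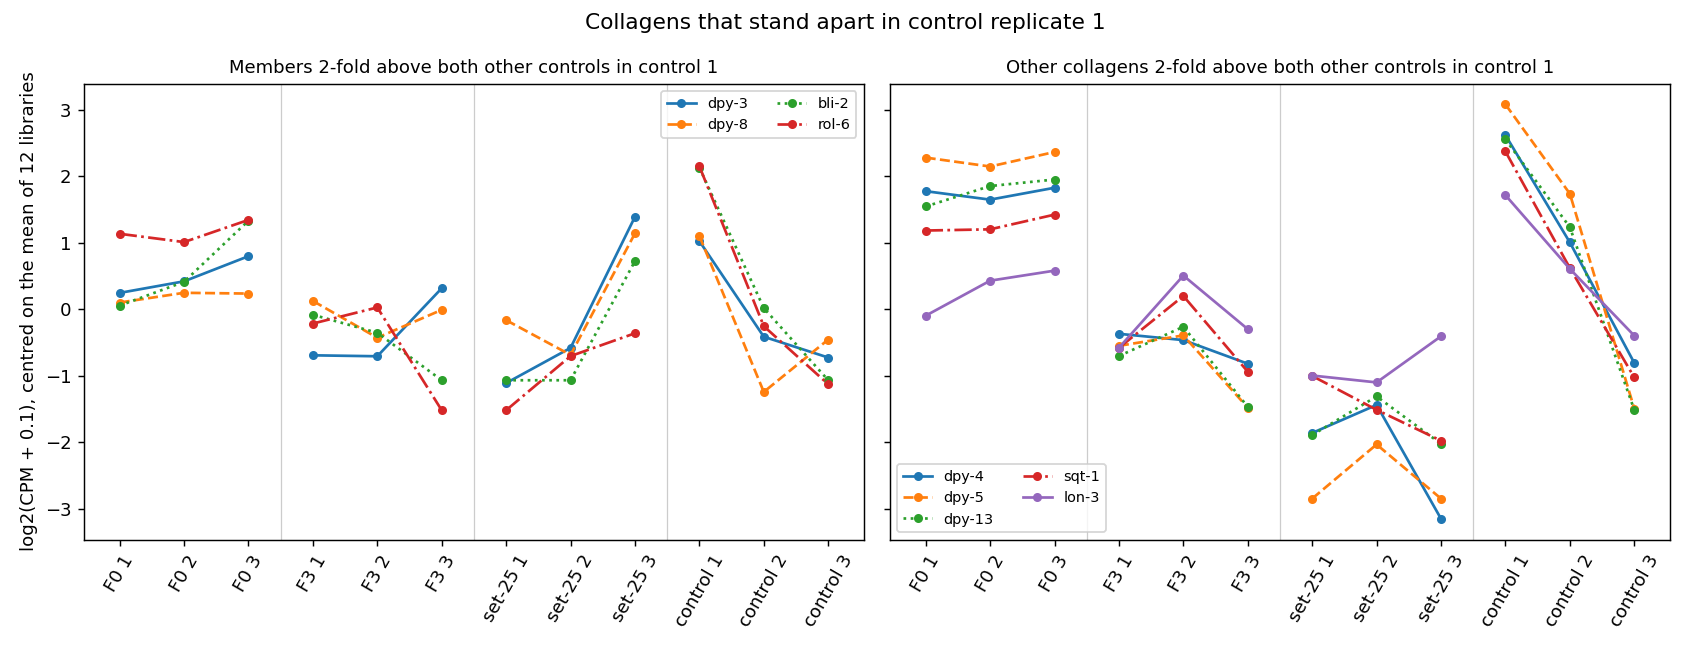
Levels of collagens that were at least 2-fold above both other controls in control library 1, as log2(CPM + 0.1) centred on the mean of 12 libraries, for 4 members (left) and 5 other collagens (right), by library. The control libraries are spread widely, with library 1 the highest, and of the genes plotted dpy-3, dpy-8 and bli-2 are high in set-25 library 3.

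F0 libraries also differed from the control in genes tied to stage. Of 15 larval moult genes 7 were higher and none lower, among them noah-2 (log2 fold change 1.25 ± 0.13, edgeR adjusted p = 3.00e-06) and noah-1 (1.06 ± 0.12, 5.44e-06), which encode proteins of the apical extracellular matrix. The summed level of the moult list was 369 to 398 CPM in F0, against 302 to 318 CPM in the control. Most of that sum was lrp-1, at means of 285 CPM in F0 and 247 CPM in the control. lrp-1 was not called (0.21 ± 0.08, edgeR adjusted p = 0.0553). Of 8 sperm genes found, 5 were tested and 4 were higher, and the list's sum was 11.4 to 13.99 CPM in F0 against 3.29 to 5.33 CPM in the control. spe-11 had 1.20 to 1.74 CPM in F0 and 0.0311 to 0.178 CPM in the control, and ssp-31 was at 0 in at least 1 control library. Both genes reached the filter's level of about 0.333 CPM only in F0, so their calls are descriptive. Of 5 seam genes found, 2 were tested. The hedgehog-related gene grd-10 was higher (1.77 ± 0.14, edgeR adjusted p = 8.75e-08), and nhr-73 was not called (-0.37 ± 0.43, 0.559). The sum of the 5 seam genes was 13.7 to 16.8 CPM in F0 against 4.33 to 5.22 CPM in the control. Most of that sum was grd-10, at means of 14.3 CPM in F0 and 4.2 CPM in the control, so it mainly repeats that gene. Markers of other tissues moved as well, where 16.7% of the 14466 genes tested were higher and 1743 genes were lower. Of 8 muscle genes 3 were higher and none lower, with a sum of 3421 to 3785 CPM in F0 against 2872 to 3224 CPM in the control. Of 8 intestinal genes 1 was higher and 3 lower, with a sum of 15284 to 17965 CPM in F0 against 19006 to 20522 CPM in the control. Most of that sum was vit-2 and vit-5, at means of 7960 and 6436 CPM in F0 and 9842 and 7307 CPM in the control. vit-5 was not called (-0.18 ± 0.07, edgeR adjusted p = 0.0753). Of 10 tested epidermal genes that are not collagens, 3 were higher, among them ifb-1, an intermediate filament gene (0.45 ± 0.04, edgeR adjusted p = 5.50e-07), and 1 was lower. The sum of the epidermal list was 2072 to 2178 CPM in F0 against 1887 to 1986 CPM in the control, so the sums of these 3 lists did not overlap between the groups. On the epidermal list, the fatty acid synthase gene fasn-1 averaged 609 CPM in F0 and 479 CPM in the control, and ifb-1 210 and 153 CPM. The germline sum did not overlap either, at 3179 to 3352 CPM in F0 against 3369 to 3428 CPM in the control. Of 8 germline genes 1 was higher and 2 were lower. The neuron sums overlapped, and of 8 neuron genes 0 were higher and 1 was lower. The part of stage or cell makeup in the collagen differences was not tested.

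Other genes of collagen production moved by small amounts in F0. Of 16 genes for modification, processing and cross-linking, 5 were higher and 1 lower. The prolyl 4-hydroxylase genes dpy-18 (log2 fold change 0.36 ± 0.07, edgeR adjusted p = 0.00109) and phy-2 (0.27 ± 0.07, 0.00675) were among the higher ones, with mlt-7, a peroxidase for cuticle cross-linking (0.21 ± 0.07, 0.0251). The protein disulfide isomerase gene pdi-1 was lower (-0.16 ± 0.05, 0.0117). The list's median was 0.11.

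Of 23 tested regulators of epidermal and cuticle genes, 3 were higher and 1 lower. The higher ones were sma-4, a Smad of the body-size pathway (0.56 ± 0.08, edgeR adjusted p = 3.88e-05), the transcription factor gene blmp-1 (0.43 ± 0.14, 0.0286) and nhr-85 (0.42 ± 0.14, 0.0330). The receptor gene daf-4 was lower (-0.18 ± 0.06, 0.0337). The median of this list was 0.06.

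Of the other body-shape collagens, 2 of 11 were higher, dpy-14 (1.52 ± 0.31, edgeR adjusted p = 0.00336) and dpy-17 (0.43 ± 0.10, 0.00316), none was lower, and the median was 0.29. dpy-17 had 11.5, 14.7 and 13.5 CPM in F0, against 9.08, 10.6 and 9.68 CPM in the control. Like sqt-3 and dpy-9 it was steady among the controls.

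Genes linked to the stress responses to furrow damage, regulators such as skn-1 among them, were mixed. Of 20 tested, 5 were higher and 2 lower in F0, with a median of 0.01. The osmotic genes hmit-1.1, a transporter (4.54 ± 0.37, edgeR adjusted p = 5.72e-06), and gpdh-1, which makes glycerol (1.64 ± 0.24, 0.000839), were higher, as was the antimicrobial peptide gene nlp-34 (1.69 ± 0.38, 0.00267). Its relatives nlp-28 (-0.66 ± 0.14, 0.00558) and nlp-31 (-0.53 ± 0.15, 0.0137) were lower. hmit-1.1 averaged 13.1 ± 4.68 CPM in F0 and 0.556 ± 0.185 CPM in the control (SD, n = 3 each), in the same libraries in which dpy-2 and dpy-9 were higher.

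In F3 animals, 3 generations after the return to 20 °C, 0 of 9 members tested differed from the control by edgeR or by DESeq2. 2 members had an unadjusted p under 0.05. Over all genes 0.138% were higher and 0.124% lower. This comparison shares its control libraries with those of F0 and of the mutants.

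dpy-2 had 0.653, 0.576 and 0.596 CPM in F3, against 0.640, 0.603 and 0.498 CPM in the control. The groups overlapped closely, with a log2 fold change of 0.06 and a 95% interval of -0.47 to 0.59. dpy-10, the most precisely measured furrow gene, had 4.83, 5.36 and 4.61 CPM in F3 and 4.50, 4.84 and 4.34 CPM in the control, with an interval of -0.13 to 0.37. For dpy-9 the interval was -0.63 to 0.27, and its 3 F3 libraries had 0.653, 0.880 and 0.895 CPM, against 0.889, 0.968 and 0.950 CPM in the control.

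The 2 members below 0.05 before adjustment were dpy-7 and sqt-3. dpy-7 had 0.0979, 0.320 and 0.281 CPM in F3, from 3, 10 and 8 counts, against 0.444, 0.589 and 0.342 CPM in the control. Every F3 library was below every control library, with a log2 fold change of -0.96 ± 0.46 (unadjusted p = 0.0491, edgeR adjusted p = 0.987). sqt-3 had 6.93, 6.78 and 6.16 CPM in F3 and 9.999, 7.15 and 7.36 CPM in the control, also without overlap (-0.29 ± 0.13, unadjusted p = 0.0412, adjusted p = 0.977). Neither passed under any of 13 alternative settings, where the lowest adjusted p was 0.490 for dpy-7 and 0.590 for sqt-3.

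rol-6 and bli-2 rested on few counts in F3. rol-6 had 0.147, 0.192 and 0 CPM in F3, 10.5 counts in all, against 1.17, 0.140 and 0.0311 CPM in the control, 39.0 counts in all. The ratio of its counts scaled to library size was 0.272 (95% exact interval 0.121 to 0.555, counting error only), and control library 1 alone held 33.0 of the control counts. Without that library the log2 fold change of rol-6 was 0.31, not -1.88. bli-2 had 0.0979, 0.0640 and 0 CPM in F3, and its control counts again came mostly from control library 1. bli-1 had 0.506, 1.02 and 0.789 CPM in F3, against 1.28, 1.04 and 0.763 CPM in the control, and the groups overlapped, with F3 library 1 below every control.

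dpy-3 had 0.0979, 0.0960 and 0.298 CPM in F3 and dpy-8 had 0.375, 0.224 and 0.333 CPM. Both sets lay inside the wide control range. The median log2 fold change of the 9 members was -0.29, that of the col- class -0.28 with 0 of 107 called, and that of the 11 other body-shape collagens -1.15 with none called.

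Against F0, the F3 animals were lower in dpy-2, dpy-7, dpy-9 and sqt-3 and higher in dpy-10. That is 4 of 9 members lower, where 17.3% of all genes were lower, and 1 higher, where 13.1% were higher (edgeR, adjusted p under 0.05). The median of the members was -0.91, and the col- class had 3 genes higher and 68 lower of 107, with a median of -1.002. F0 libraries enter this comparison and the one with the control, so the values of the pair of comparisons are not independent.

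In all 4 lower genes, every F3 library was below every F0 library. The log2 fold changes were -1.26 ± 0.24 for dpy-2 (edgeR adjusted p = 0.000622), -1.78 ± 0.41 for dpy-7 (0.00321), -0.88 ± 0.21 for dpy-9 (0.00463) and -0.91 ± 0.13 for sqt-3 (4.70e-05). These calls held in all 13 alternative settings. dpy-10 was 1.31-fold higher in F3 (0.39 ± 0.13, adjusted p = 0.0288), also without overlap, but 5 of 13 settings ended this call: library totals alone, a fit on 6 libraries, and leaving out F0 library 1, F0 library 2 or F3 library 2.

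rol-6 and bli-2 were likewise below F0 in each F3 library. rol-6 had 0.147, 0.192 and 0 CPM in F3, against 0.529, 0.477 and 0.627 CPM in F0 (-2.26 ± 1.05, edgeR adjusted p = 0.135). These values are descriptive, since rol-6 passed the filter mainly through F0 and bli-2 did not pass it. dpy-3 (-1.19 ± 0.71, adjusted p = 0.229), dpy-8 (-0.28 ± 0.63, 0.783) and bli-1 (-0.37 ± 0.31, 0.405) did not pass.

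Of the other body-shape collagens, 7 of 11 were lower in F3 than in F0 and none higher, among them bli-6 (-1.21 ± 0.26, edgeR adjusted p = 0.00422), dpy-14 (-1.45 ± 0.31, 0.00431) and dpy-17 (-0.40 ± 0.10, 0.00549). Of the modification genes, dpy-18 (-0.43 ± 0.07, 0.000207), phy-2 (-0.35 ± 0.07, 0.000937) and dpy-11, a thioredoxin-like gene (-0.16 ± 0.05, 0.0208), were among 5 lower, and pdi-1 was the 1 that was higher (0.14 ± 0.05, 0.0291). Of the regulators, sma-4 (-0.53 ± 0.08, 7.41e-05) and the nuclear receptor gene nhr-25 (-0.98 ± 0.27, 0.0113) were lower, and daf-4 and bed-3 higher. Moult genes moved with them, with 8 of 15 lower and none higher, and their sum was 278 to 345 CPM in F3 against 369 to 398 CPM in F0. Most of that sum was lrp-1, which was not called (-0.18 ± 0.08, edgeR adjusted p = 0.102). Sperm genes were also lower in 4 of 5 tested, at a sum of 2.53 to 4.67 CPM in F3 against 11.4 to 13.99 CPM in F0. Of the sperm genes, spe-11 and ssp-31 passed the filter through F0 alone, so their values here are descriptive. grd-10 was lower in F3 (-1.95 ± 0.15, edgeR adjusted p = 3.93e-08), as were ifb-1 (-0.58 ± 0.04, 3.27e-08) and fasn-1, a fatty acid synthase gene (-0.32 ± 0.06, 0.000488), among 3 lower and 1 higher of 10 epidermal genes. The epidermal sum was 1862 to 2006 CPM in F3 against 2072 to 2178 CPM in F0. Of 8 muscle genes 3 were lower (mlc-1, myo-3 and lev-11) and none higher, at sums of 2855 to 3542 CPM in F3 and 3421 to 3785 CPM in F0, which overlapped. Of 8 intestinal genes 4 were higher, among them pept-1, vit-2 and vit-5, and 1 lower, at a sum of 19696 to 22761 CPM in F3 against 15284 to 17965 CPM in F0. Most of that sum was vit-2 and vit-5. Germline had 3 of 8 genes higher and 1 lower, and neurons had 0 of 8 in either direction. The part of stage or cell makeup in these collagen differences was not tested.

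**Figure D4:**
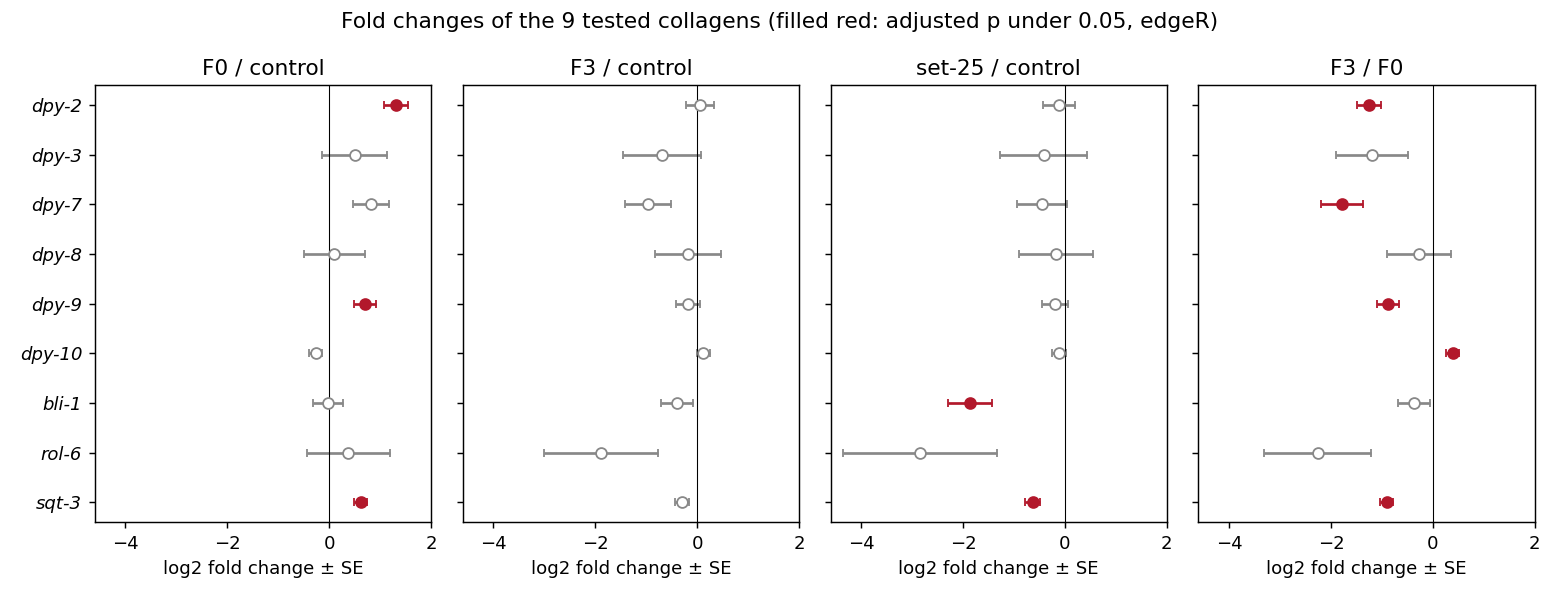
Log2 fold change ± SE of the 9 tested collagens in 4 comparisons, those of F0, F3 and set-25 with the control and that of F3 with F0; filled red points have an edgeR adjusted p under 0.05. dpy-2, dpy-9 and sqt-3 are right of 0 in F0 against control and, with dpy-7, left of 0 in F3 against F0, while bli-1 and sqt-3 are left of 0 in set-25 against control.

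In set-25 mutants, bli-1 and sqt-3 were lower than in the control and no member was higher. That is 2 of 9 tested members, where 8.14% of all genes were lower (edgeR, adjusted p under 0.05). Over all 14466 genes tested, 1287 were higher. The members' median log2 fold change was -0.42, and the col- class had 1 gene higher and 34 lower of 107, with a median of -0.55. The median over all genes tested lay within 0.01 of 0.

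bli-1, the longest of the 10 transcripts, had 0.241, 0.190 and 0.615 CPM in the mutants, from 5 counts in each library, against 1.28, 1.04 and 0.763 CPM in the control, from 36, 37 and 24.5 counts. Every mutant library was below every control library. The log2 fold change was -1.86 ± 0.43, a fold of 0.276, with an edgeR adjusted p of 0.00640. The same 5 counts gave the highest CPM in library 3 because that library is the shallowest.

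sqt-3 had 6.11, 4.45 and 5.32 CPM in the mutants, against 9.999, 7.15 and 7.36 CPM in the control, without overlap. It fell to a fold of 0.645 (log2 fold change -0.63 ± 0.15, edgeR adjusted p = 0.00692). Both calls were lost only when set-25 library 2 was left out, with adjusted p of 0.0599 for bli-1 and 0.0616 for sqt-3. Both held when the 2 set-25 libraries rich in ribosomal RNA were left out, a fit in which the lone mutant library is assumed to vary like the other groups. The part of library quality in these differences was not tested.

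The furrow collagens did not separate the mutants from the control. dpy-2 had 0.410, 0.683 and 0.492 CPM in the mutants, against 0.640, 0.603 and 0.498 CPM in the control (log2 fold change -0.12 ± 0.31, edgeR adjusted p = 0.866). dpy-9 had 0.627, 0.949 and 0.862 CPM in the mutants, against 0.889, 0.968 and 0.950 CPM in the control (-0.19 ± 0.26, 0.671). dpy-10 had 3.703, 4.42 and 4.68 CPM in the mutants and 4.50, 4.84 and 4.34 CPM in the control, with a 95% interval of -0.39 to 0.15 on the log2 scale. dpy-7 had 0.482, 0.152 and 0.492 CPM in the mutants, inside and below the control range (-0.45 ± 0.48, adjusted p = 0.568). dpy-3 (-0.42 ± 0.85, 0.786) and dpy-8 (-0.17 ± 0.73, 0.906) were too variable for a difference to be read.

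bli-2 and rol-6 had almost no counts in the mutants. rol-6 had 0, 2 and 1 counts in the mutants, 0 to 0.123 CPM, against 39.0 counts in the control, and the ratio scaled to library size was 0.134 (95% exact interval 0.0264 to 0.420). bli-2 had 0, 0 and 2 counts in the mutants against 27 in the control, a ratio of 0.129 (0.0148 to 0.512). Those intervals cover counting error only and do not carry the spread between control libraries, of which library 1 held most counts. For rol-6 the fitted log2 fold change of -2.85 ± 1.51 did not pass (edgeR adjusted p = 0.232) and was -0.66 without control library 1. For bli-2, which no main test covered, a fit without the expression filter gave an adjusted p of 0.154.

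Other body-shape collagens were lower in the mutants in 4 of 11 cases, where 8.14% of all genes were lower, with none higher and a median of -2.32. Control libraries differed widely in several of these genes, and the median carries that spread. dpy-5, for example, had 5.99, 2.30 and 0.156 CPM in control libraries 1, 2 and 3. Those called lower included rol-8 (-2.32 ± 0.67, edgeR adjusted p = 0.0309), lon-3 (-2.86 ± 0.89, 0.0347) and bli-6 (-1.34 ± 0.32, 0.0143). bli-6 had 1.71, 1.97 and 3.39 CPM in the mutants and 7.53, 5.68 and 3.21 CPM in the control, so that the groups overlapped. lon-3 had 1 count in each mutant library.

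Enzymes that act on collagens were split in the mutants, with 2 of 16 higher and 3 lower. The prolyl 4-hydroxylase genes phy-2 (-0.48 ± 0.08, edgeR adjusted p = 0.000351) and dpy-18 (-0.37 ± 0.08, 0.00366) and the lysyl hydroxylase gene let-268 (-0.38 ± 0.09, 0.00874) were lower. phy-2 averaged 14.6 ± 0.955 CPM in the mutants and 20.3 ± 1.41 CPM in the control (SD, n = 3 each). The higher ones were mlt-7 (0.26 ± 0.07, 0.0191) and pdi-3 (0.18 ± 0.05, 0.0240).

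Of 23 regulators only sma-9 passed, and it was higher (0.17 ± 0.05, edgeR adjusted p = 0.0168). Of the 20 tested genes linked to furrow damage, skn-1 was higher (0.32 ± 0.04, 5.71e-05) and the transporter gene snf-12 lower (-0.56 ± 0.18, 0.0385). Of 15 moult genes mlt-8 and ptr-4 were lower and none higher, with a sum of 285 to 328 CPM in the mutants against 302 to 318 CPM in the control. On the seam list grd-10 was lower (-1.81 ± 0.22, edgeR adjusted p = 1.79e-05), and nhr-73, the other gene tested, was not called. The seam list's sum was 1.29 to 2.06 CPM in the mutants against 4.33 to 5.22 CPM in the control. Most of that sum was grd-10, at means of 1.17 CPM in the mutants and 4.2 CPM in the control. Of 10 tested epidermal genes that are not collagens, 4 were higher and none lower, beside 1287 higher and 1178 lower of all 14466 genes. The sum of the epidermal list was 1918 to 2108 CPM in the mutants and 1887 to 1986 CPM in the control, and these ranges overlapped. In the lists of 8 genes each, muscle had 1 higher and 1 lower, intestine 2 higher and 0 lower, germline 3 higher and 2 lower, and neurons 2 higher and 1 lower. The intestinal sum, mostly vit-2 and vit-5, was 21564 to 23283 CPM in the mutants and 19006 to 20522 CPM in the control. The neuron sum was 149 to 156 CPM in the mutants and 162 to 169 CPM in the control. Neither pair of ranges overlapped, whereas those of muscle and germline did. The part of these lists in the collagen differences was not tested.

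Against F0, set-25 mutants were lower in 5 of 9 members, dpy-2, dpy-7, dpy-9, bli-1 and sqt-3, where 20.4% of all genes were lower (edgeR, adjusted p under 0.05). The log2 fold changes were -1.43 ± 0.27, -1.27 ± 0.44, -0.89 ± 0.24, -1.84 ± 0.43 and -1.25 ± 0.14 in that order. Genotype, temperature and hours since plating all differ between these groups. The call of dpy-7 was lost in 4 of 14 settings and that of dpy-9 in 2 of 14. The median of the members was -1.25, and the col- class had 1 gene higher and 77 lower of 107, with a median of -1.21. Of 11 other body-shape collagens 7 were lower and 0 higher, with a median of -2.23.

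Against F3, which grew at the same temperature for the same hours, only bli-1 was lower in the mutants (1 of 9 members, where 7.28% of all genes were lower). Besides genotype, the groups differ in descent from animals kept at 25 °C and in the later library numbers of the mutants. The col- class had 1 gene higher and 16 lower of 107, with a median of -0.23, beside -0.18 for the members. bli-1 had 0.241, 0.190 and 0.615 CPM in the mutants and 0.506, 1.02 and 0.789 CPM in F3, and the groups overlapped. The log2 fold change was -1.46 ± 0.45 (edgeR adjusted p = 0.0342), and the call was lost in 7 of 14 settings. sqt-3 had 6.11, 4.45 and 5.32 CPM in the mutants and 6.93, 6.78 and 6.16 CPM in F3, all mutant libraries being below all F3 libraries, but it did not pass (-0.34 ± 0.15, adjusted p = 0.147).

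The members differed from one another in how they moved across the 12 libraries. Likeness was measured as the root mean square difference between log2 CPM profiles, each centred on its own mean (prior count of 2), so that smaller is more alike. dpy-2 and dpy-9 were closest, at 0.284, followed by sqt-3 and dpy-9, at 0.321. dpy-10 was nearest to dpy-9, at 0.487, but the pair moved in opposite directions in F3 against F0 (log2 fold changes of 0.39 and -0.88). dpy-3 and dpy-8 were nearest to each other, at 0.578. rol-6 was the farthest from each of the other 8 tested members, with 1.33 to dpy-10. Few counts widen these distances for the rare members.

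Outside the 10 genes, the 5 whose profile was closest to the members' mean profile were col-133 (0.171), F44E2.4 (0.218), cpg-7 (0.220), fkb-4 (0.234) and K01A2.9 (0.238), over 12 libraries. K01A2.9 reached the filter's level only in F0, at 0.375 to 0.441 CPM, so its place among the 5 is descriptive. col-133, another cuticle collagen, averaged 7.14 ± 0.00780 CPM in F0, 3.39 ± 0.441 CPM in F3, 3.57 ± 0.772 CPM in set-25 mutants and 4.61 ± 1.23 CPM in the control (SD, n = 3 each). fkb-4, which encodes a peptidyl-prolyl isomerase of the FK506-binding family, averaged 1.30 ± 0.250 CPM in F0, 0.755 ± 0.156 in F3, 0.623 ± 0.212 in set-25 mutants and 0.793 ± 0.180 in the control. With a prior count of 0.5, 4 of the 5 genes were the same.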

How the data were processed

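The authors deposited 1 table in which each value is an estimated count (expected count) of reads per gene or repeat copy, not normalized; 22.4% of the values were not whole (tolerance 1e-06). The submitters' processing notes list TopHat2 2.1.0, featureCounts 1.5.1 and DESeq2 1.8.1 without saying what each did. Build, annotation, strand setting and the handling of reads with several matches: not given in the sources used here. Per the labels' protocols, TRIzol RNA was depleted of ribosomal RNA and made into stranded libraries without poly(A) selection.

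The plan had assumed whole counts, so values were rounded to whole numbers for testing. Genes, without repeat copies, were tested with edgeR 4.0.16 in R 4.3.3 (robust quasi-likelihood fit, TMM scaling, filterByExpr by group) in 1 fit of 12 libraries with a term per group. This tested 14466 genes, two-sided, with Benjamini-Hochberg adjustment and a threshold of 0.05. CPM used the unrounded counts. SE is the log2 fold change divided by the root of the F statistic, and 95% intervals are the fold change ± 1.96 SE. Within a group, libraries differed beyond sampling noise, by 4.03 to 5.78 chi-square per degree of freedom in control and F0 and 18.7 to 242 in F3 and set-25. DESeq2 1.42.0 and other settings were alternatives. The test was also run on counts simulated from its own fitted model, which cannot show how well that model fits these libraries.

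Members, lists, alternatives and tests were chosen with earlier results of these data known. Named genes were the 10 members, up to 3 called genes with the smallest p per list, direction and comparison, the 5 genes most like the members, and set-25; exceptions are stated. ram-4 and elt-5 were not matched to the table. Chromosomes, lengths and overlaps come from Ensembl 115 (WBcel235), whose build may differ from that of the counts, so no coordinates are given.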

Additional observations from a re-analysis of the deposited data

How the results depend on the processing

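Counts of members called are given as the range over the 6 fits that each leave out 1 library, then over the other settings. For F0 against control they were 2 to 3 and 2 to 4, beside 3. For F3 against control both were 0. For set-25 against control they were 0 to 2 and 2, the 0 being without set-25 replicate 2. For F3 against F0 they were 4 to 5 in both, and for set-25 against F0 4 to 5 and 4 to 6, beside 5 each. For set-25 against F3, 1 in the main result, the count was 0 to 1 without single replicates, and 0 with only the 6 libraries, with the replicate block, or with set-25 libraries 1 and 3 left out; the cause was not tested. The replicate block gave 3, 0, 2, 5 and 5 in the remaining comparisons. Replicate numbers did not pair the samples: same-numbered libraries correlated at -0.21 to 0.12, and 2 of 18 pairs exceeded 0.1. No called fold change changed sign. Over all genes, the 38 calls of F3 against control became 96 without the filter, 15 with 6 libraries, 24, 20 and 104 without F3 replicates 1, 2 and 3, and 23 without control replicate 1. The 2465 of set-25 against control became 1613 without set-25 replicate 1, 1595 without control replicate 3 and 742 without set-25 libraries 1 and 3, which took those of set-25 against F0 to 3333, beside 5404, and of set-25 against F3 to 669, beside 2237. The last also became 1206 with 6 libraries and 1392 without set-25 replicate 1. Rounding the estimated counts up, an alternative chosen after seeing the data, changed no count of members. Of 637 list counts, 92 moved down and 19 up by more than 1.5 times. Depth limits dpy-3, dpy-8, bli-2 and rol-6: a single count is worth 0.123 CPM in set-25 library 3.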
